A study of Mus musculus with 8 samples.

Results

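The enzymes that make and break down proline were examined in PER-M60 cells, a mouse leukaemia cell line, grown in control medium or in medium conditioned by osteoclasts, the bone-resorbing cells. The 5 genes were taken by symbol from the deposited count table of 21859 gene IDs: Aldh18a1 and Pycr1 for synthesis, Prodh and Aldh4a1 for breakdown, and Oat for the route from ornithine. Total RNA was sequenced from 4 control cultures and 4 cultures in osteoclast-conditioned medium, so medium was the only labelled difference between the groups. All 8 cultures carry 1 cell line name, and the length of culture, the composition of the control medium and the source of the osteoclasts are not given in the sources used here. Equal replicate numbers in the 2 groups are names only, and nothing in the labels says how far the cultures were independent, so p-values measure the spread between these cultures, which may be technical.

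Proline is built in mitochondria from glutamate. Delta-1-pyrroline-5-carboxylate synthase, encoded by Aldh18a1, reduces glutamate to pyrroline-5-carboxylate (P5C), and P5C reductases then reduce P5C to proline; PYCR1 is mitochondrial and PYCR3 is cytosolic. Proline dehydrogenase (Prodh) reverses the last step and feeds electrons to the respiratory chain, P5C dehydrogenase (Aldh4a1) returns P5C to glutamate, and ornithine aminotransferase (Oat) links ornithine to P5C. Aldh18a1 and Pycr1 are known in many cell types as genes of the amino acid response, in which the transcription factor ATF4 acts at composite elements shared with C/EBP proteins.

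Total counts per culture ran from 15391754 to 21637966, and 3 counts, the limit that a count of 0 allows, correspond to 0.139 to 0.195 CPM (counts scaled to a library of 1e+06). Levels below are normalised CPM, which use library sizes scaled by the trimmed mean of M-values (TMM), and values after ± are standard deviations over 4 cultures. Differences were tested with edgeR's quasi-likelihood test over 10729 genes, and a gene was called where its p adjusted by Benjamini-Hochberg was under 0.05. Of 14 markers of B-lineage cells, 12 passed the filter on low counts and 6 of these were called higher and 2 lower, beside 15.7% called higher and 14.8% lower (30.5% in all) over all tested genes. Rag1 and Rag2 were listed at 0 but lie whole inside another counted gene, where, as described for Aldh4a1 and Oat, a 0 gives no measure. The summed level of the 14 markers was 4622 to 4678 CPM in control cultures and 4881 to 4930 CPM in conditioned cultures. The 14 osteoclast markers summed to 211 to 236 and 218 to 228 CPM, with Dcstamp and Ocstamp at 0. Of the 5 tested among them, Nfatc1 was called higher and Itgb3 lower. Nearly all of the osteoclast marker sum lay in these 5 tested genes. Mean levels in control and conditioned cultures were 95.6 and 106 CPM for Nfatc1 and 67.8 and 52.8 CPM for Tcirg1. Clcn7 was at 26.7 and 28.1 CPM, Acp5 at 22.9 and 24.4 CPM and Itgb3 at 12.9 and 10.7 CPM. No untested osteoclast marker had more than 51 counts in total, with 17 for Ctsk and 26 for Mmp9. Whether any of this sum came from osteoclasts was not tested. The 15 T-cell and myeloid markers summed to 137 to 139 and 139 to 143 CPM, with Cd3g, Cd8a, Elane and Cd14 at 0. Itgam was also listed at 0, but 99.9% of its span lies in another counted gene, so that its 0 gives no measure. Nearly all of this sum was Lck, at 133 to 137 CPM in every culture. Lyz2, the only other tested gene of that list, went from 4.46 ± 0.406 to 5.91 ± 0.865 CPM (n = 4 each) and was called higher, with no overlap between groups (log2 fold change 0.40, adjusted p = 0.0119, edgeR). The part of the B-lineage and other marker levels in the results below was not tested.

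The promoter sequences of the 2 genes that rose are shown because their letters differ at the elements searched. All 5 genes have an entry among 32851 RefSeq promoters (build GRCm38.p6), and the 250 bases before each start were searched on both strands for TGATGNAA, the letters of the composite element of C/EBP and ATF proteins, and for CACGTG, the E-box that MYC and its partner MAX bind. The promoter of Pycr1, chr11:120643749-120643998 on the minus strand, holds 1 TGATGNAA match, which starts 103 bases before the start and is in capitals. The promoter of Aldh18a1, chr19:40588464-40588713 on the minus strand, holds no TGATGNAA and 1 CACGTG, which starts 59 bases before the start and is in capitals.
Pycr1: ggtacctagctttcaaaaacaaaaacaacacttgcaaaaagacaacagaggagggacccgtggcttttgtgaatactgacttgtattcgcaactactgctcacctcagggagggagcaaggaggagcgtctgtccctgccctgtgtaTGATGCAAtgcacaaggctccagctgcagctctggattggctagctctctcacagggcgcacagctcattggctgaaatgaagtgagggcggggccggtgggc
Aldh18a1: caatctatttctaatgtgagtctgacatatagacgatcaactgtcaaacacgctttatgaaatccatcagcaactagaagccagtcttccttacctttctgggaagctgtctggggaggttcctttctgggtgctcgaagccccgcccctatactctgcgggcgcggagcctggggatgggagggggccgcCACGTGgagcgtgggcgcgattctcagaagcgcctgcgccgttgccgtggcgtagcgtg
Neither motif was found in this window of Prodh, Aldh4a1 or Oat. Over all promoters, 3.45% held TGATGNAA and 6.02% held CACGTG. A match describes letters and is not evidence of binding.

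The 2 synthesis genes rose in conditioned medium. Prodh, the only breakdown gene that could be tested, had 16 to 29 counts a culture and was not called. Of the 5 genes, 3 had enough counts to be tested, and 2 of these were called higher and 0 lower. Aldh4a1 and Oat were listed at 0, which, as described below, gives no measure of them. Over all tested genes 30.5% were called, 15.7% higher and 14.8% lower, so calls were common in this comparison. Scaling by total counts alone moved that split, from 1689 higher and 1584 lower genes to 1383 higher and 2012 lower, and left both synthesis genes called higher. In RNA from a whole culture, fewer cells that use a gene and less RNA per cell cannot be told apart.

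Aldh18a1 encodes the enzyme that commits glutamate to proline synthesis, with a kinase and a reductase domain in 1 protein. The gene (ENSMUSG00000025007) spans chr19:40550257-40588463 on the minus strand. Its counts were 6266, 8089, 5503 and 6589 in control cultures and 9190, 7515, 8619 and 7638 in conditioned cultures. Its normalised levels were 371, 373, 356 and 372 CPM in control cultures and 467, 450.0, 463 and 446 CPM in conditioned cultures. Every conditioned culture was above every control culture, and the distance between the groups was larger than the range within either. The mean went from 368 ± 7.93 to 456 ± 10.3 CPM (n = 4 each), a fold of 1.24. The log2 fold change was 0.31 with a standard error of 0.03 and a 95% interval of 0.26 to 0.36 (adjusted p = 2.06e-10, edgeR). Against a change of 1.2-fold in place of 0 the call ended, with an adjusted p of 0.330 in edgeR's test against a fold. Among all tested genes 521, or 4.86%, had a larger log2 fold change, and 360 of them were called.

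Pycr1 encodes a mitochondrial P5C reductase, the last enzyme of proline synthesis. The gene (ENSMUSG00000025140) spans chr11:120635712-120643769 on the minus strand. It was counted 726, 930, 614 and 769 times in control cultures and 1072, 903, 1051 and 1002 times in conditioned cultures. The normalised levels were 43.0, 42.9, 39.7 and 43.4 CPM in control cultures and 54.5, 54.1, 56.4 and 58.5 CPM in conditioned cultures. Here too the groups did not overlap, which held for 28.2% of all tested genes, 15.2% with the conditioned cultures higher and 12.9% with them lower. The mean went from 42.3 ± 1.69 to 55.9 ± 2.01 CPM (n = 4 each), a fold of 1.32. The log2 fold change was 0.40 with a standard error of 0.04 and a 95% interval of 0.32 to 0.48 (adjusted p = 1.72e-08, edgeR). It also passed edgeR's test against a 1.2-fold change, with an adjusted p of 0.0187. A larger log2 fold change was found for 308 tested genes, or 2.87%, of which 224 were called. Control replicate 3 was the lowest culture for both synthesis genes, and without it the log2 fold changes were 0.38 for Pycr1 and 0.30 for Aldh18a1.

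The change of Pycr1 was then set against that of Aldh18a1 within each culture. The log2 ratio of Pycr1 to Aldh18a1 counts, which needs no scaling between libraries, was 0.09 higher in conditioned cultures, a fold of 1.07, and the groups overlapped. Its p was 0.0571 in a two-sided exact permutation test and 0.0762 after adjustment over 4 count ratios, of which 2 are not reported here; all were chosen after the values were seen. The smallest p that 4 against 4 cultures allow is 0.0286. Without conditioned replicate 4 the difference was 0.06.

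Prodh, which encodes the first enzyme of proline breakdown, was near the lower limit of what this depth measures. The gene (ENSMUSG00000003526) spans chr16:18060357-18090203 on the minus strand. It had 29, 20, 19 and 25 counts in control cultures and 23, 22, 20 and 16 in conditioned cultures, 174 in all. Its normalised levels were 1.72, 0.923, 1.23 and 1.41 CPM against 1.17, 1.32, 1.07 and 0.934 CPM. The lowest control culture was below every conditioned culture and the highest was above all of them, so the groups overlapped. The mean was 1.32 ± 0.333 CPM in control and 1.12 ± 0.162 CPM in conditioned cultures (n = 4 each). The log2 fold change was -0.21 with a standard error of 0.23 (adjusted p = 0.530, edgeR), and its 95% interval of -0.66 to 0.24 holds both a fall and a rise. Leaving out control replicate 1 gave -0.05 and leaving out control replicate 2 gave -0.37, so single cultures set this value. The span of Prodh overlaps Dgcr6 on the opposite strand over 37.8% of its length, and 5.14% of its exon bases lie there. Dgcr6 itself was listed at 0 in every culture. How reads over this overlap were assigned is not given, so the levels of both genes may be affected. The related gene Prodh2, a hydroxyproline dehydrogenase, had at most 1 count in any culture.

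Aldh4a1 and Oat were listed at 0 in all 8 cultures, and these zeros give no measure of either gene. Aldh4a1, the P5C dehydrogenase gene (ENSMUSG00000028737, chr4:139622866-139649690, plus strand), lies whole inside the annotated gene Gm21969 (chr4:139603186-139662691, plus strand), which itself had 0 to 2 counts, and shares 32.5% of its exon bases with exons of that gene. Oat (ENSMUSG00000030934, chr7:132557478-132576398, minus strand) lies whole inside the annotated span of the receptor gene Fgfr2 (chr7:130162451-133123350, minus strand) and shares no exon with it. Fgfr2 had 733, 833, 682 and 810 counts in control cultures and 842, 619, 744 and 808 in conditioned cultures. Of 889 genes whose span lies inside 1 other counted gene, 888, or 99.89%, were at 0 in every culture. Of 17163 genes that overlap no other counted gene, 5337, or 31.1%, were. How reads over overlapping genes were assigned is not given in the sources used here. The breakdown of P5C to glutamate and the route from ornithine could therefore not be compared between the media.

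**Figure D1:**
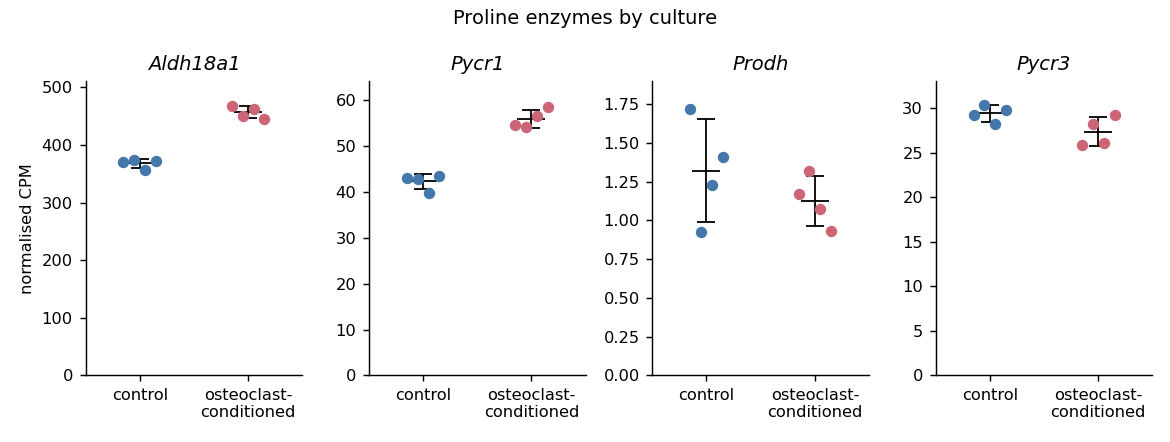
Normalised level (CPM, linear axis from 0, a scale of its own for each gene) of the 3 tested proline enzyme genes and of Pycr3 in each culture. Points are cultures, and lines are the mean and 1 SD over 4 cultures. For Aldh18a1 (356 to 373 against 446 to 467 CPM) and Pycr1 (39.7 to 43.4 against 54.1 to 58.5 CPM) the groups stand apart, and for Prodh and Pycr3 they overlap.

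Pycr3, which encodes the cytosolic P5C reductase, was not called. It was at 29.3, 30.4, 28.2 and 29.9 CPM against 25.8, 28.3, 26.1 and 29.2 CPM. Its groups overlapped, with a log2 fold change of -0.11, a standard error of 0.05 and a 95% interval of -0.22 to -0.01 before adjustment (adjusted p = 0.119, edgeR). The count ratio of Pycr1 to Pycr3 was 1.42-fold higher in conditioned cultures, with no overlap between groups. Its p was 0.0286 in the two-sided exact permutation test, the smallest this design allows, and 0.0571 after adjustment over the 4 ratios, which misses 0.05. The annotated transcripts of Pycr1 and Pycr3 share no stretch of 50 bases.

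Compared per kilobase of merged exon, Aldh18a1 had a level of 90.4 CPM per kilobase in control and 112 in conditioned cultures. Pycr3 had 21.99 ± 0.693 and 20.4 ± 1.23, and Pycr1 had 10.7 ± 0.429 and 14.2 ± 0.510 CPM per kilobase (n = 4 each). Prodh stood at 0.169 and 0.144 CPM per kilobase. The levels of these 4 genes kept this order in both media, and no neighbours in it overlapped. The order between genes holds only if reads were counted over exons, which is not given in the sources used here. Oat was listed at 0 although it shares no exon with Fgfr2, and whether reads were counted over whole gene spans was not tested. The order of Pycr1 and Pycr3 turns with the length: their merged exons hold 3935 and 1339 bases, and before division by length Pycr1 was above Pycr3 in every culture.

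Among other genes that handle proline, 2 transporters and a tRNA synthetase rose and a collagen-modifying enzyme fell. Of 26 such genes, which carry proline, load it on tRNA, release it from peptides or hydroxylate it, 16 were tested, 3 were called higher, 1 lower and 12 not called. The share called lies below the 30.5% called over all tested genes, and the count is no result about these genes as a group. Their median log2 fold change was -0.03, against -0.01 over all tested genes. Slc1a4, a neutral amino acid transporter, was at 64.0, 68.8, 61.8 and 67.0 CPM in control cultures and between 98.5 and 102 CPM in conditioned cultures. The gap was wide against the spread, with a log2 fold change of 0.62 and a standard error of 0.04 (adjusted p = 7.20e-14, edgeR). Slc38a2, a sodium-coupled transporter that carries proline among other small neutral amino acids, rose by a log2 fold change of 0.26 (standard error 0.03, adjusted p = 1.44e-07, edgeR). Eprs, the glutamyl-prolyl-tRNA synthetase, rose from a mean of 621 to 739 CPM, a log2 fold change of 0.25 (adjusted p = 1.29e-08, edgeR). P4ha1, a catalytic subunit of the prolyl hydroxylase that modifies collagen, fell by 0.16 on the log2 scale (adjusted p = 0.00197, edgeR). Pars2, the mitochondrial prolyl-tRNA synthetase, had a log2 fold change of -0.08 (adjusted p = 0.442, edgeR). Nadk2, the mitochondrial NAD kinase that supplies the NADP(H) used by P5C synthase, had -0.07 (adjusted p = 0.240, edgeR).

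Genes of glutamate supply and of enzymes that use glutamate or its nitrogen included alanine, asparagine and serine pathway enzymes that rose. Of 20 listed, 15 were tested, 5 were called higher, 1 lower and 9 not called, with a median log2 fold change of 0.03. Over all tested genes 15.7% were called higher and 14.8% lower. Gpt2, the mitochondrial alanine aminotransferase, was at 72.8, 73.6, 65.5 and 74.7 CPM in control cultures and 127, 121, 129 and 124 CPM in conditioned cultures. Its log2 fold change was 0.805 with a standard error of 0.04 (adjusted p = 2.02e-16, edgeR). Asns, asparagine synthetase, rose by a log2 fold change of 0.49 (adjusted p = 7.70e-14, edgeR). Phgdh, the first enzyme of serine synthesis, rose by 0.24 (adjusted p = 1.81e-08, edgeR). Slc25a18, a mitochondrial glutamate carrier, rose by 0.71 from a low level, 1.66 to 2.65 against 2.99 to 3.70 CPM (adjusted p = 0.00131, edgeR). Asns and Phgdh do not supply glutamate; they belong to asparagine and serine synthesis. The remaining calls, named after their values were seen, were Psat1 at 0.08 (adjusted p = 0.0482, edgeR), which 12 of 21 alternative settings did not call (6 of them leaving out control replicate 1, 3 or 4 or conditioned replicate 1, 2 or 3, at adjusted p of 0.104 to 0.127), and Glul, glutamine synthetase, which fell by 0.185 on the log2 scale (adjusted p = 0.000190, edgeR). Glud1, glutamate dehydrogenase, had a log2 fold change of -0.02 (adjusted p = 0.630, edgeR) and was not called.

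On the ornithine side, the transporter Slc7a1 rose and 2 genes of polyamine synthesis, Sms and Amd1, fell. Of 25 genes of ornithine, arginine and polyamine metabolism, 16 were tested, 1 was called higher, 5 lower and 10 not called, with a median log2 fold change of -0.07, where 14.8% of all tested genes were called lower. The calls on 2 of the 5 lower genes, Asl and Slc25a15, were lost when single cultures were left out. Slc7a1, the cationic amino acid transporter that brings in arginine and ornithine, was at 503, 517, 503 and 509 CPM in control cultures and 701, 698, 707 and 681 CPM in conditioned cultures. It rose by a log2 fold change of 0.45 with a standard error of 0.03 (adjusted p = 1.63e-14, edgeR). Sms, spermine synthase, fell by 0.26 on the log2 scale (adjusted p = 1.76e-05, edgeR). Amd1, which makes the aminopropyl donor of polyamine synthesis, fell by 0.24 (adjusted p = 0.00175, edgeR). Asl, argininosuccinate lyase, fell by 0.17 (adjusted p = 0.0185, edgeR), a call lost without control replicate 1 (adjusted p = 0.0588) or conditioned replicate 3 (0.0911). The other 2 lower genes, named after their values were seen, were Oaz1, ornithine decarboxylase antizyme, at -0.12 (adjusted p = 0.00339, edgeR), and Slc25a15, the mitochondrial ornithine carrier, at -0.15 (adjusted p = 0.0214, edgeR). The call on Slc25a15 was lost without control replicate 2 (adjusted p = 0.0636), control replicate 4 (0.0623) or conditioned replicate 2 (0.0652). Srm, spermidine synthase, had a log2 fold change of -0.04 (adjusted p = 0.332, edgeR) and was not called. Odc1, ornithine decarboxylase, had a log2 fold change of -0.06 (adjusted p = 0.103, edgeR), and 2 of 21 alternative settings called it lower, scaling by total counts (adjusted p = 0.0196, edgeR) and by the upper quartile (adjusted p = 0.0460, edgeR).

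**Figure D2:**
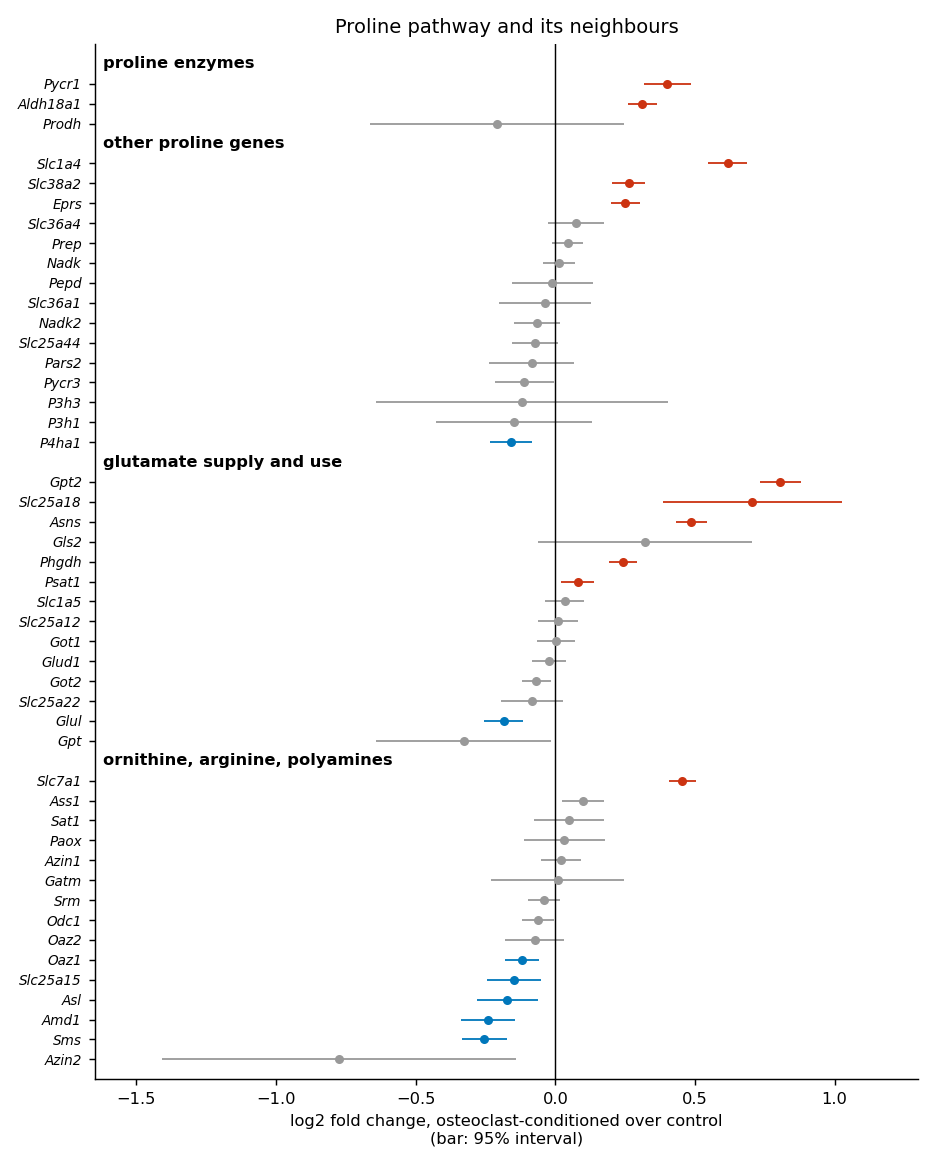
Log2 fold change, conditioned over control, of the tested proline enzyme genes and of the genes of 3 neighbouring lists that are reported here, with bars of the 95% interval. Red genes were called higher, blue genes lower, and grey genes were not called. Gpt2 (0.805), Slc25a18 (0.71), Slc1a4 (0.62), Asns (0.49) and Slc7a1 (0.45) lie above Pycr1 (0.40) and Aldh18a1 (0.31).

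Aldh18a1 also belongs by sequence to the aldehyde dehydrogenase superfamily, as does Aldh4a1. Of 18 other members of that family, 10 were tested, 4 were called higher, 1 lower and 5 not called, with a median log2 fold change of 0.14, beside 30.5% called and 15.7% called higher over all tested genes. Aldh1l2, the mitochondrial 10-formyltetrahydrofolate dehydrogenase, went from 6.02 to 7.96 CPM in control cultures to 24.9 to 29.8 CPM in conditioned cultures, a log2 fold change of 1.99 (adjusted p = 7.00e-18, edgeR). Of its exon bases, 14.1% overlap those of D10Wsu102e, and how reads there were assigned is not given. Aldh1a7, a close relative of Aldh1a1, had a log2 fold change of 0.22 (adjusted p = 2.32e-07, edgeR). Aldh1a7 had 50246 counts over the 8 cultures and Aldh1a1 had 1, and how the authors' counting divides reads between the pair was not tested. Aldh3a2, which oxidises fatty aldehydes, had 0.16 (adjusted p = 0.0352, edgeR), and 9 of 21 alternative settings did not call it. These include leaving out control replicate 4 or conditioned replicate 1, 2 or 4, with adjusted p of 0.0542 to 0.144. The count of called family members ran from 3 to 6 when single cultures were left out; it was 3 without control replicate 4, without conditioned replicate 2 and without conditioned replicate 4.

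Transcription factors and other regulators known from the amino acid response and from proline metabolism were also measured; the list includes Trib3, a pseudokinase, and Sirt3, a mitochondrial deacetylase, which are not transcription factors. Of 11 listed, 9 were tested, 5 were called higher, 2 lower and 2 not called, with a median log2 fold change of 0.21, beside 30.5% called over all tested genes. Atf4, the factor of the amino acid response, was at 367, 354, 391 and 366 CPM in control cultures and 437, 433, 422 and 439 CPM in conditioned cultures. It rose by a log2 fold change of 0.23 with a standard error of 0.03 (adjusted p = 3.04e-07, edgeR). Trib3 and Ddit3, both known as targets of ATF4, rose by 1.58 (adjusted p = 5.38e-19, edgeR) and 0.64 (adjusted p = 3.45e-09, edgeR). Of the span of Ddit3, 54.3% lies in other counted genes, Mars and another gene ID also named Ddit3. Cebpb, a partner of ATF4, was at 0.231 to 0.508 CPM in control and 1.26 to 2.33 CPM in conditioned cultures, a log2 fold change of 2.46 (adjusted p = 1.89e-07, edgeR), and 60.4% of its span overlaps Tmem189. Myc had a log2 fold change of -0.11 (adjusted p = 0.00996, edgeR) with overlapping groups, and 5 of 21 alternative settings did not call it. These include leaving out control replicate 1 or 4 or conditioned replicate 2 or 3, with adjusted p of 0.0501 to 0.0600. The remaining calls, named after their values were seen, were Mycn at 0.21 (adjusted p = 8.51e-06, edgeR) and Max at -0.10 (adjusted p = 0.0124, edgeR). The call on Max was lost without control replicate 4 (adjusted p = 0.0623) or conditioned replicate 2 (0.0692). Trp53, which encodes p53, a known activator of Prodh, had a log2 fold change of 0.02 (adjusted p = 0.678, edgeR).

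Across the proline enzymes and the 3 neighbouring lists, TGATGNAA was found in the promoter window of 2 of 11 genes called higher, Pycr1 and Asns. It was found in 0 of the 6 genes called lower that have a promoter entry, out of 7 in all. Of 32 genes tested and not called, 18 have an entry and 1, Got1, a cytosolic aspartate aminotransferase gene, holds a match. The 3 stretches of 30 bases around these matches are shown with the matched letters in capitals, that of Got1 being a match on the reverse strand. They lie at chr11:120643833-120643862 for Pycr1, chr6:7693214-7693243 for Asns and chr19:43524689-43524718 for Got1, in build GRCm38.p6.
Pycr1: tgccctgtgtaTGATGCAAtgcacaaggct
Asns: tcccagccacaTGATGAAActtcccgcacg
Got1: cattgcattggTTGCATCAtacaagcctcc
The matches begin 103, 23 and 102 bases before the start. Both genes called higher and the gene that was not called thus carry these letters, and Gpt2, Slc1a4 and Aldh18a1 rose without them in this window. CACGTG was found in 1 of the 11 genes called higher, Aldh18a1, in 2 of the 6 genes called lower that have an entry, Sms and Slc25a15, and in 3 of the 18 not called, Nadk, Slc36a1 and Ass1.

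The genes most like each enzyme gene in their pattern over the 8 cultures were found by the root mean square difference of centred log2 CPM among the other tested genes that averaged 5 CPM or more, 9031 for Pycr1 and Aldh18a1 and 9032 for Prodh. For Pycr1 these were Arid5a at 0.0235, Sft2d2 at 0.0284 and Mia2 at 0.0354, where the median gene was at 0.219. For Aldh18a1 they were Cybb at 0.0141, Tgfb3 at 0.0172 and Abcg1 at 0.0189, with a median of 0.173. For Prodh the nearest genes, Rhobtb1 at 0.149, Rhebl1 at 0.161 and Crem at 0.165, lay closer to the median of 0.273. The counts of Prodh, 16 to 29 a culture, give its profile a wider counting error than those of the other 2 genes.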

How the data were processed

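Total RNA from 8 cultures of the PER-M60 line was sequenced after library preparation with the SureSelect HS2 kit, per the labels' protocols. The authors deposited whole-number counts per gene, with no normalization. The submitters' processing notes name STAR 2.7.5a, featureCounts 2.0.1 and build mm10; the counting annotation, strand setting and handling of overlapping genes are not given in the sources used here. Gene IDs were matched to GENCODE M21 (21817 of 21859), and promoter sequences came from RefSeq. Counts were scaled by TMM and filtered with filterByExpr, and the 2 media were compared over all 8 cultures with edgeR 4.0.16 (robust quasi-likelihood test, Benjamini-Hochberg over 10729 genes, threshold 0.05), after the fit had been tested on simulated counts. Alternatives covered scaling, filters, DESeq2 1.42.0, limma-voom 3.58.1, depth, a replicate block, a 1.2-fold threshold and leaving out each culture. Intervals are 1.96 standard errors.

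The members and lists were chosen with earlier results of these data known. Named genes were all 5 members, a set of pathway genes whatever their result, the up to 4 called genes (3 for the aldehyde dehydrogenases and the regulators) with the largest absolute log2 fold change in each list, Atf4, Myc and Trp53, and the 3 genes most like each tested member; exceptions are marked. Count ratios were compared with exact permutation tests. Some genes of the lists enter the counts and medians but are not reported here by name, with the results that need them. No column of the table was left unmatched, and no 2 libraries agreed within sampling noise.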

Additional observations from a re-analysis of the deposited data

Results flagged for a closer look

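For 37 values in 2 media, 74 sets of 4 cultures were examined. The values were gene levels, count ratios and a share not reported here, which reuse the same counts, so the sets are not independent. In 4 sets a culture lay far from the others. Its gap to the nearest other, as a share of the set's range, was above Dixon's 95% critical value. Chance flags about 1 in 20 sets, or 3.7 of 74. Pycr1 was at 39.7 CPM in control replicate 3 and at 42.9 to 43.4 CPM in the other control cultures. Aldh18a1 was also lowest in control replicate 3, at 356 CPM against 371 to 373 CPM. Amd1 was at 96.8 CPM in conditioned replicate 3 and at 103 to 104 CPM in the other conditioned cultures. Aldh3a2 was at 22.2 CPM in control replicate 4 and at 25.4 to 25.5 CPM in the other control cultures.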

How the results depend on the processing

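Pycr1 was called higher under all 21 alternatives, with log2 fold changes of 0.38 to 0.42, and Aldh18a1 under 20 of 21, at 0.29 to 0.32. The test against a 1.2-fold change left 227 genes called in all. Under it Aldh18a1 kept its log2 fold change of 0.31 with an adjusted p of 0.330, and 1 of the proline enzymes, 1 other proline gene, 2 glutamate genes, 1 ornithine gene, 1 aldehyde dehydrogenase and 3 regulators were called. The aldehyde dehydrogenase count was 3 with counts thinned to the smallest total, with DESeq2's Wald test and with the replicate block on thinned counts; the cause was not tested. Leaving out 1 culture gave 3 to 6 aldehyde dehydrogenases, 5 to 6 glutamate genes, 5 to 7 ornithine genes, 5 to 7 regulators, and 2635 to 3578 genes in all. Without single cultures, an alternative chosen for the ratios after seeing the data, the Pycr1 to Pycr3 ratio (log2) differed by 0.48 to 0.54 and Pycr1 to Aldh18a1 by 0.06 to 0.12. Same-numbered cultures did not deviate together (correlations of -0.03, 0.09, -0.05 and 0.14); fitting a replicate block gave log2 fold changes of 0.40 for Pycr1, 0.31 for Aldh18a1 and -0.22 for Prodh, and 3446 genes were called. Prodh was not in the fit that needs a mean of 50 counts, Aldh4a1 and Oat could not be fitted under any setting, and the depth of Prodh limits its comparison.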
